A study of Mus musculus with 130 samples.

Results

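The 8 genes Rrm1, Rrm2, Rrm2b, Tyms, Tk1, Dut, Dctd and Samhd1 make, balance or break down deoxynucleotides, the building blocks of DNA. They were taken by gene symbol from a table of 52550 genes, of which 41706 had a count, and all 8 had enough counts to be tested. RNA was sequenced from wild-type mouse embryos of the strain FVB/NJ with FUCCI, a fluorescent reporter of the cell cycle, and no treatment is named. Minced embryos were sorted by flow into the gate BR, labelled as G0, the gate DR, labelled as G1, the gate YE, labelled as G1-S, and the gate GR, labelled as S-G2-M; US stands for unsorted cells. The design set out to examine expression by phase at 3 embryonic days. Of the 5 preparations, WT1 and WT2 came from E10.5, WT3 came from E11.5, and 5 and 8 came from E13.5. Each preparation gave 1 library of each of the 5 fractions, 25 libraries in all, so that a fraction has n = 5 preparations. Whether a preparation pools embryos and which promoter drives the reporter are not in the labels, and the phase of a cell is known only through its gate.

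Ribonucleotide reductase turns ribonucleotides into deoxyribonucleotides. Its large subunit Rrm1 holds the catalytic site and pairs either with Rrm2, the small subunit of dividing cells, or with Rrm2b, a p53-inducible small subunit that serves cells outside S phase. Thymidylate is made from dUMP by Tyms, with a folate as carbon donor, or from thymidine by Tk1. The dUMP comes from dUTP through Dut, which also keeps uracil out of DNA, and from dCMP through the deaminase Dctd. Samhd1 does the reverse of supply, since it cleaves deoxynucleoside triphosphates. Many supply genes are known as targets of E2F factors, whose binding letters lie close to the start of transcription.

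The promoters of 3 members are shown because they belong to genes that rose strongly between the G0 and G1-S gates and yet differ in the letters they hold. RefSeq windows on GRCm38.p6, from 250 bases before to 50 bases after a start, were found for 7 of the 8 members (Rrm2b was not among them). Capitals mark E2F-type letters (TTTCCCGC, TTTGGCGC, TTTCGCGC, TTCCCGCC or TTGGCGCC, of which neighbours can overlap) and the CCAAT box, CCAAT, searched on both strands. The windows are those of Rrm1 at chr7:102441445-102441744 on the plus strand, Rrm2 at chr12:24708004-24708303 on the plus strand and Tk1 at chr11:117825965-117826264 on the minus strand.
Rrm1: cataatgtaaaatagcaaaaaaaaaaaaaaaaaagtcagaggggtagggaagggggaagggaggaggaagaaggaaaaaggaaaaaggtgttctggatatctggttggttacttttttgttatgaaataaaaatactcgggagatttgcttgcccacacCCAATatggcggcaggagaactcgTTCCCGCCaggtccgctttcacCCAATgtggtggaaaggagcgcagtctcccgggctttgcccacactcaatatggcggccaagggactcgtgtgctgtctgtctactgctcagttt
Rrm2: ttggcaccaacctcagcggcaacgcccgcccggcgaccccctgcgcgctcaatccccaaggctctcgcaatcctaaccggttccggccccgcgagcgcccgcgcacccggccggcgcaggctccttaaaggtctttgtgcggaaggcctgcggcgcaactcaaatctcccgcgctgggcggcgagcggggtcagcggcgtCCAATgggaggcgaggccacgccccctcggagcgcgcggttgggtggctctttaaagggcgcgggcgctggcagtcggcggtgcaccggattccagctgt
Tk1: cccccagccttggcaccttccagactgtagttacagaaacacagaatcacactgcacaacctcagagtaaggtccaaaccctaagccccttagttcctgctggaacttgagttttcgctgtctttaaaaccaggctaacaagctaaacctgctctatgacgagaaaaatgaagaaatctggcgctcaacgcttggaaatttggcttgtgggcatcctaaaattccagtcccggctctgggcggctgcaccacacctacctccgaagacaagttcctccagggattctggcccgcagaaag
The Rrm1 window held 1 E2F-type match, TTCCCGCC, which begins 67 bases before the start, and 2 CCAAT boxes, which begin 91 and 45 bases before it. In the Rrm2 window there was 1 CCAAT box, 50 bases before the start, and no E2F-type match. None of these letters was in the Tk1 window, and the windows of Tyms, Dut and Samhd1 held none of them either. The Dut window, chr2:125247265-125247564 on the plus strand, lies inside the gene, which begins at 125247190 in GENCODE M21. Bases before that gene start were therefore not searched. Dctd has 3 windows, of which 2 overlap and held the same CCAAT box. Among all 32851 windows of the table, 4.0% held an E2F-type match and 37.4% held a CCAAT box. The letters TTTGAA or TTCGAA, known as the CHR element of late cell cycle genes, were in 0 of the members' windows and in 19.2% of all windows. These matches describe letters in 1 window and show no binding.

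Libraries held 14.7 to 58.5 M counts (M for mega, median 22.9 M). Levels are given as CPM, the counts of a gene per M of the scaled library total. The gates separated genes of the cell cycle: 6 genes of the passage from G1 to S summed to 111 to 219 CPM in G0 and to 804 to 1610 CPM in G1-S, and 8 genes that act from S phase to mitosis summed to 49.5 to 120 CPM in G0 and to 3200 to 3670 CPM in S-G2-M. The gates G1-S and S-G2-M shared both sets. The 8 genes from S phase to mitosis summed to 1310 to 1920 CPM in G1-S. The 6 genes of the passage from G1 to S summed to 510 to 790 CPM in S-G2-M. Other cell types moved with the gates. The summed level of 10 neuron markers was 5050 to 8850 CPM in G0 and 182 to 507 CPM in S-G2-M, and 10 of 10 were lower in S-G2-M. Between G1 and G1-S, 8 of 8 hepatocyte, 10 of 10 macrophage and 7 of 8 cardiac markers rose. The hepatocyte sum in G1-S was 21.1, 28.3 and 120 CPM in WT1, WT2 and WT3, and 2120 and 1590 CPM in 5 and 8. The macrophage sum there was 117, 99.3 and 119 CPM in WT1, WT2 and WT3, and 385 and 314 CPM in 5 and 8. The cardiac sum in G1-S was 315 to 1010 CPM over the 5 preparations. Of 10 erythroid markers, the sum was 16600 to 35900 CPM in unsorted cells and 82.5 to 3130 CPM in the sorted gates. No marker of these lists was at 0 in every library of a fraction. The share of mitochondrially encoded genes was 0.372% to 0.701% in WT1, WT2 and WT3 and 1.66% to 3.42% in preparations 5 and 8. The part of these differences in the results on the supply genes was not tested, and in sorted tissue a smaller number of cells of a type cannot be told apart from less RNA per cell.

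All members but Rrm2b were lowest in the G0 gate in 5 of 5 preparations and climbed in the steps to G1 and G1-S. Rrm2b ran the other way and was highest in G0 in 5 of 5 preparations. From G0 to G1, 7 members rose and 1, Rrm2b, fell; of all 23506 genes tested, 18.2% rose and 18.1% fell (edgeR's quasi-likelihood test, adjusted p under 0.05, here and below). From G1 to G1-S 6 members rose and none fell, against 11.7% and 7.18% of all genes. Dctd and Rrm2b did not pass the test at that step. Between G1-S and S-G2-M no member passed, while 17.4% of all genes did; at an unadjusted p under 0.05 there was 1, Samhd1, DESeq2 also called 1, Samhd1, and the fit with no filter on low counts called 1, Rrm2. Between the ends of the series, S-G2-M against G0, 7 members rose and 1 fell, against 27.5% and 26.6% of all genes. The median log2 change of the 8 members in S-G2-M against G0 was 2.40, and the median of all genes was -0.01. Each of these calls kept its direction and its side of the threshold in every alternative tried, also within the WT-titled preparations alone and within preparations 5 and 8 alone.

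**Figure D1:**
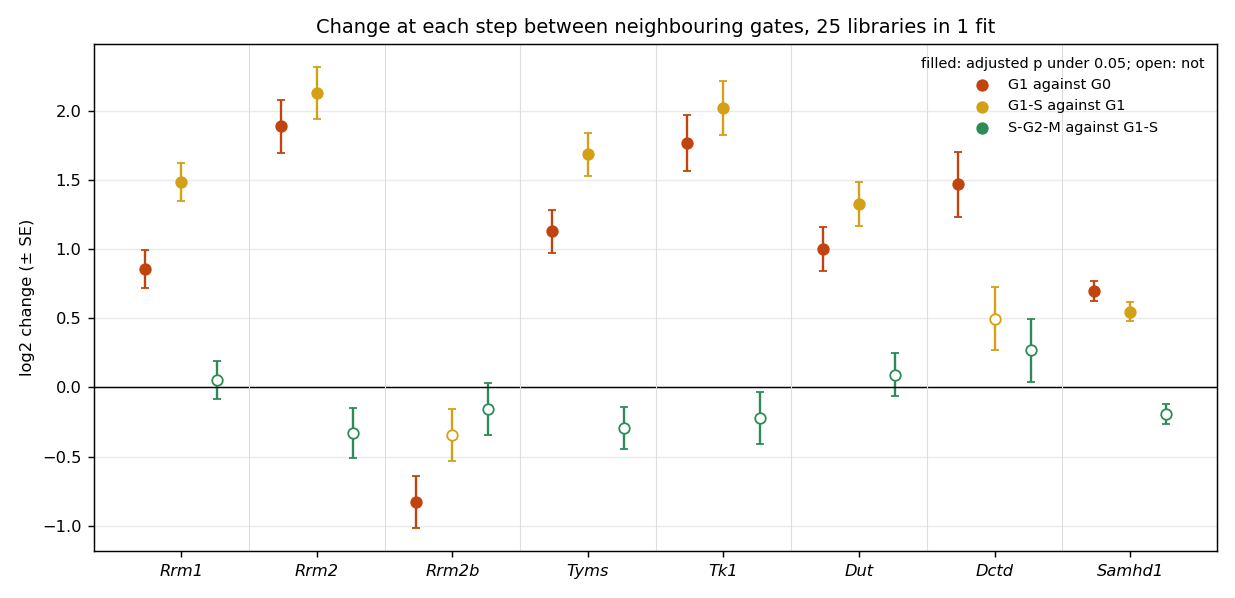
The log2 change (vertical axis) with its standard error for each of the 8 genes at the 3 steps between neighbouring gates, from 1 fit of 25 libraries; filled points passed the test. The steps to G1 and to G1-S lie above 0 for all genes but Rrm2b, and all points of the step from G1-S to S-G2-M are open.

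Rrm2, the small subunit that is made for S phase, had the largest fold of S-G2-M over G0 among the members in the fit of all preparations, while in preparations 5 and 8 that of Tk1 was larger. Its level in G0 was 16.0, 24.0, 40.3, 19.1 and 17.1 CPM in WT1, WT2, WT3, 5 and 8. In G1 these preparations had 93.0, 142, 147, 41.8 and 40.3 CPM, so that G1 of preparation 8 was as low as G0 of WT3. In G1-S the levels were 488, 424, 550, 230 and 234 CPM, above every G1 library. In S-G2-M they were 350, 338, 357, 210 and 214 CPM, lower than in G1-S of the same preparation in 5 of 5. The rise from G0 to G1 was 1.89 ± 0.19 on the log2 scale (SE, adjusted p = 7.25e-08) and the further rise to G1-S was 2.13 ± 0.19 (adjusted p = 9.98e-09). The step to S-G2-M, at -0.33 ± 0.18, did not pass (adjusted p = 0.234), although with no filter on low counts it did (adjusted p = 0.049). S-G2-M stood 12.8-fold above G0 (log2 3.68 ± 0.20, adjusted p = 7.3e-13). Within a preparation the highest gate was 12 to 30.5 times the lowest. The gene lies at chr12:24708241-24714146 on the plus strand of GRCm38, and Gm48455, a copy of part of its transcript, was counted at 0.643% of the counts of Rrm2.

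Rrm1, the catalytic subunit, rose at the same steps as Rrm2 by smaller folds. In G0 it had 90.1, 119, 139, 93.2 and 83.0 CPM in WT1, WT2, WT3, 5 and 8, and in G1 it had 212, 270, 254, 115 and 124 CPM. G1 of preparations 5 and 8 therefore lay within the range of G0. In G1-S the range was 453 to 617 CPM and in S-G2-M it was 459 to 608 CPM, above every G1 library. Rrm1 rose by 0.85 ± 0.14 from G0 to G1 (log2, adjusted p = 3.3e-05) and by 1.48 ± 0.14 from G1 to G1-S (adjusted p = 2.47e-08). The step from G1-S to S-G2-M was 0.06 ± 0.14 (adjusted p = 0.849), with 3 of 5 preparations higher. Rrm1 lies at chr7:102441695-102469771 on the plus strand.

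Rrm2b, the small subunit of cells outside S phase, was highest in G0. Its G0 levels were 30.0, 28.7, 36.4, 14.9 and 15.2 CPM in WT1, WT2, WT3, 5 and 8, so that both E13.5 preparations lay below the others. In G1 the levels were 16.7, 16.6, 15.3, 9.28 and 10.8 CPM. In G1-S they were 6.88, 11.9, 13.4, 10.2 and 10.8 CPM, and in S-G2-M 10.3, 10.1, 11.1, 8.24 and 8.41 CPM. Every S-G2-M library was below every G0 library. Rrm2b fell by 0.83 ± 0.19 from G0 to G1 (log2, adjusted p = 0.00112). The later steps, -0.34 ± 0.19 to G1-S (adjusted p = 0.216) and -0.16 ± 0.19 to S-G2-M (adjusted p = 0.645), did not pass. S-G2-M was 2.51-fold below G0 (log2 -1.33 ± 0.19, adjusted p = 2.27e-06), lower in 5 of 5 preparations. Rrm2b lies at chr15:37923952-37961318 on the minus strand. The other-strand gene Gm49085 covers 8.0% of its exon length, and whether reads were counted by strand is not given in the sources used here. Gm8616, a copy of part of its transcript, was counted at 1.84% of the counts of Rrm2b.

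**Figure D2:**
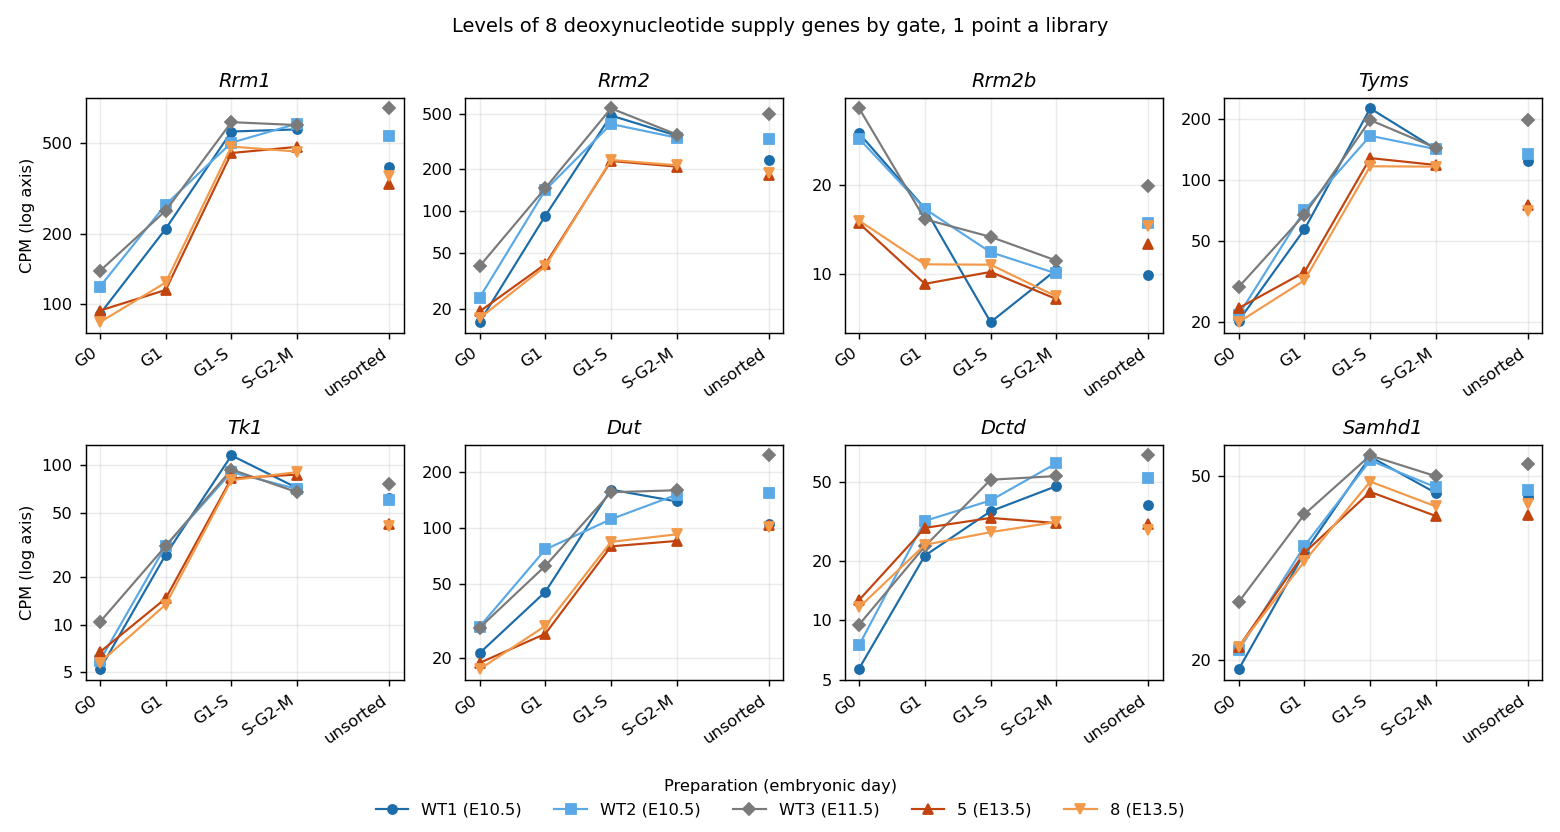
The level of each gene in CPM (log axis) in the 4 gates and in unsorted cells, 1 point a library, with lines joining the gates of a preparation. Rrm2b is highest in G0 in all 5 preparations, and the other 7 genes are lowest there.

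The balance between the small subunits was read per length, since Rrm2 and Rrm2b differ in size. Per kilobase of merged exons, the ratio of the Rrm2 level to the Rrm2b level was 1.76 to 4.24 in G0 (median 3.65). It was 12.3 to 31.6 in G1 and 71.7 to 234 in G1-S. In S-G2-M the ratio was 83.9 to 111, with a median of 106. The gates G0, G1 and G1-S did not overlap in this ratio, while G1-S and S-G2-M did. With the longest coding transcript as the length, the medians of this ratio were 2.3 in G0 and 74.3 in G1-S. The ratio of Rrm1 to Rrm2, again per kilobase of merged exons, went down from 0.866 to 1.42 in G0 to 0.282 to 0.519 in G1-S. Per kilobase of the longest coding transcript the ratio of Rrm1 to Rrm2 was 1.89 to 3.09 in G0 and 0.616 to 1.13 in G1-S, so that whether it lies above or below 1 depends on the length used. In G1 the ratio was 0.435 to 0.771 on the first scale and 0.948 to 1.68 on the second. Preparations 5 and 8 had the highest values of that ratio in G1, G1-S and S-G2-M. These ratios are of RNA levels and describe the values above without a test of their own.

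**Figure D3:**
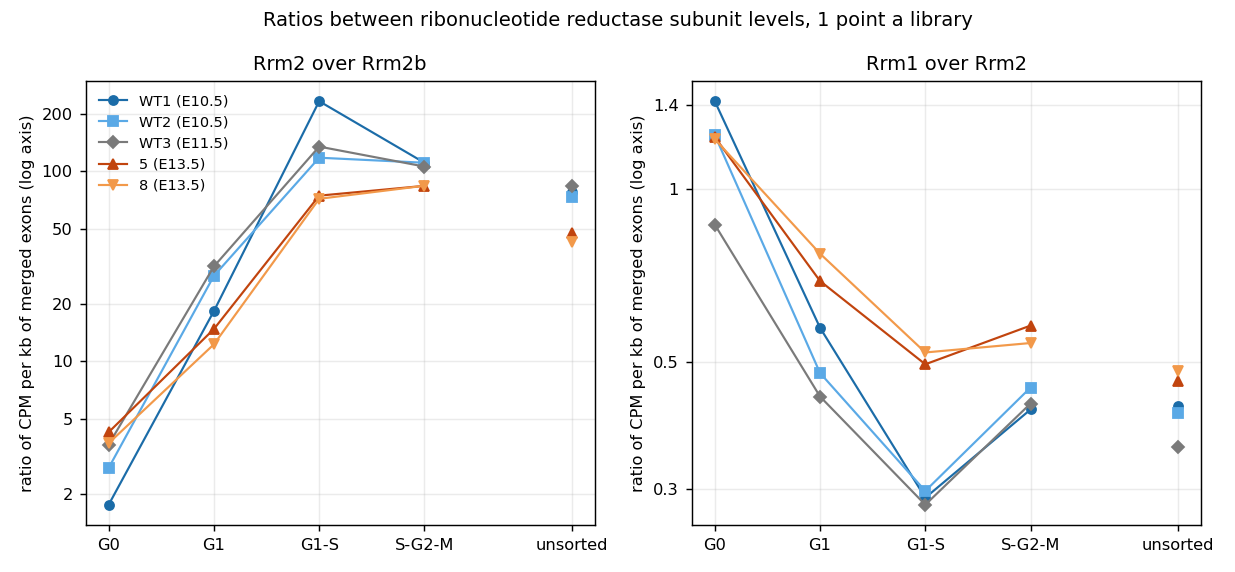
Ratios of CPM per kilobase of merged exons (log axes) between the reductase subunits, 1 point a library: Rrm2 over Rrm2b on the left and Rrm1 over Rrm2 on the right. The left ratio lies between 1.76 and 4.24 in G0 and between 71.7 and 234 in G1-S.

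Tyms and Tk1, the de novo and the salvage routes to thymidylate, moved nearly in step with Rrm2. Tyms had 20.3, 21.7, 29.8, 23.5 and 20.01 CPM in G0 of WT1, WT2, WT3, 5 and 8. In G1 it had 57.1, 70.9, 67.5, 35.2 and 32.1 CPM, above every G0 library. Its G1-S levels were 224, 165, 197, 128 and 117 CPM. G1-S was the highest gate of Tyms in 5 of 5 preparations, but the step to S-G2-M did not pass (log2 -0.29 ± 0.15, adjusted p = 0.205). The rises were 1.13 ± 0.16 from G0 to G1 (adjusted p = 4.79e-06) and 1.68 ± 0.16 from G1 to G1-S (adjusted p = 1.84e-08). Tyms lies at chr5:30058202-30073617 on the minus strand, and its copy Tyms-ps was counted at 1.08% of its counts.

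Tk1, the cytosolic thymidine kinase, was less steep than Rrm2 in the WT-titled preparations and steeper in preparations 5 and 8. In G0 it had 5.24, 5.93, 10.4, 6.72 and 5.77 CPM in WT1, WT2, WT3, 5 and 8. In G1-S the levels were 115, 90.5, 94.1, 82.8 and 80.7 CPM, and in S-G2-M they were 72.0, 71.0, 67.8, 87.4 and 90.7 CPM. The WT-titled preparations were thus lower in S-G2-M than in G1-S, and preparations 5 and 8 were not. Over all preparations S-G2-M was 11.8-fold above G0 (log2 3.57 ± 0.21, adjusted p = 2.1e-12). Within the WT-titled preparations that change was 3.34 ± 0.20 for Tk1 and 3.80 ± 0.26 for Rrm2. Within preparations 5 and 8 it was 3.78 ± 0.11 for Tk1 and 3.50 ± 0.08 for Rrm2; the difference between the genes was not tested. The steps of Tk1 were 1.77 ± 0.20 from G0 to G1 (adjusted p = 3.78e-07) and 2.02 ± 0.20 from G1 to G1-S (adjusted p = 4.05e-08). Tk1 lies at chr11:117815526-117826092 on the minus strand, and Afmid on the other strand covers 1.6% of its exon length.

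Dut, the dUTPase, had a mean of 23.1 ± 5.68 CPM in G0 (SD, n = 5), 48.1 ± 21.2 CPM in G1, 118 ± 38.2 CPM in G1-S and 125 ± 34.2 CPM in S-G2-M. G0 and G1 overlapped between preparations, with G1 higher in 5 of 5, and G1-S did not overlap with G1. The rise was 1.001 ± 0.16 from G0 to G1 (log2, adjusted p = 2.86e-05) and 1.32 ± 0.16 from G1 to G1-S (adjusted p = 1.38e-06). The highest sorted gate was S-G2-M in 4 of 5 preparations. Dut lies at chr2:125247190-125258608 on the plus strand.

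Dctd, the dCMP deaminase, took most of its rise in the first step. It had 5.71, 7.50, 9.52, 12.7 and 11.6 CPM in G0 of WT1, WT2, WT3, 5 and 8, and 21.3, 31.9, 23.7, 29.4 and 24.1 CPM in G1, with no overlap. The levels were 35.7, 40.4, 51.5, 33.0 and 27.9 CPM in G1-S and 47.8, 62.4, 53.7, 31.1 and 31.5 CPM in S-G2-M. From G0 to G1 Dctd rose by 1.47 ± 0.24 (log2, adjusted p = 3.2e-05). The step to G1-S was 0.50 ± 0.23 (adjusted p = 0.135), although 5 of 5 preparations were higher; with no filter on low counts it passed (adjusted p = 0.0182). S-G2-M was 4.69-fold above G0 (log2 2.23 ± 0.24, adjusted p = 3.96e-08). Within the WT-titled preparations that change was 2.89 ± 0.23, and within preparations 5 and 8 it was 1.31 ± 0.13. Dctd lies at chr8:48099092-48153233 on the plus strand.

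Samhd1, the enzyme that breaks deoxynucleotides down, rose together with the genes of supply, with the smallest change among the risers. In G0 it had 19.1, 21.03, 26.7, 21.4 and 21.4 CPM in WT1, WT2, WT3, 5 and 8. In G1 the levels were 34.1, 35.3, 41.4, 34.2 and 32.7 CPM, and in G1-S they were 55.0, 54.0, 55.4, 46.2 and 48.7 CPM. No library of these 3 gates overlapped with the gate before it. The rises were 0.70 ± 0.07 (log2, adjusted p = 6.11e-08) and 0.55 ± 0.07 (adjusted p = 3.1e-06). In S-G2-M Samhd1 had 46.0, 47.3, 49.95, 41.0 and 43.0 CPM, lower than in G1-S in 5 of 5 preparations by 0.15 to 0.26 on the log2 scale. That step missed the threshold in edgeR (log2 -0.19 ± 0.07, adjusted p = 0.0565) and passed it in DESeq2 (adjusted p = 0.018). Over the other alternatives its sign was the same. Samhd1 lies at chr2:157097533-157135265 on the minus strand.

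Per kilobase of merged exons the mean levels in G1-S were in the order Rrm2 (139 ± 52.9 CPM per kilobase, SD, n = 5), Dut (48.9 ± 15.9), Rrm1 (47.5 ± 5.98), Tyms (27.3 ± 7.46), Tk1 (17.8 ± 2.64), Dctd (11.1 ± 2.62), Samhd1 (5.67 ± 0.456) and Rrm2b (1.16 ± 0.265). On this scale Dut and Rrm1 did not differ beyond their spread. Tyms overlapped with Dut and with Tk1. The order depends on the length used: per kilobase of the longest coding transcript, Rrm1 (131 ± 16.5) was second after Rrm2 (176 ± 66.8) and above Dut by more than their spread, and Tk1 (64.4 ± 9.55) came before Dut (60.5 ± 19.6) and Tyms (52.5 ± 14.4). Samhd1 and Rrm2b were last in G1-S on both scales. In G0 the level of Rrm2b per kilobase of merged exons, 2.74 ± 1.05, was within the spread of Dctd (2.76 ± 0.843) and Samhd1 (2.40 ± 0.311).

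Unsorted cells of the same preparations are the background of each gate. Against them, 7 members were lower in G0 and 1, Rrm2b, was higher, where 32.6% and 30.6% of all genes were. In G1 7 members were lower and none higher, against 26.9% and 18.4% of all genes. The fold was largest for Rrm2, 12-fold lower in G0 (log2 -3.58 ± 0.20, adjusted p = 2.34e-12) and 3.24-fold lower in G1 (log2 -1.70 ± 0.19, adjusted p = 3.04e-07). In G1-S 3 members, Tyms, Tk1 and Samhd1, were higher than in unsorted cells and none lower, against 13.1% and 20.1% of all genes. Tk1 led with 0.73 ± 0.19 (log2, adjusted p = 0.00539) and was higher in 5 of 5 preparations with no overlap. In S-G2-M 1 member, Tk1, was higher and 1, Rrm2b, lower, against 11.9% and 18.2% of all genes. The calls in these last gates depended on single preparations. Tk1 in G1-S passed with each preparation left out, Tyms did not without WT1 (adjusted p = 0.0545) or 8 (adjusted p = 0.073), and, with 1 preparation left out, Samhd1 passed only where that was WT3 and Rrm2b in S-G2-M only where it was WT1. With preparation as a block, Samhd1 in G1-S (adjusted p = 0.0511) and Tk1 in S-G2-M (adjusted p = 0.0513) no longer passed. Without preparation 5 and without preparation 8 no member passed in S-G2-M. Within the WT-titled preparations alone 1 member passed in G1-S and none in S-G2-M. Within preparations 5 and 8 alone 6 and 5 passed. The rise of Rrm2b in G0 over unsorted cells, 0.75 ± 0.19 (log2, adjusted p = 0.00134), was 0.27 within preparations 5 and 8 (adjusted p = 0.0674). Dctd in G1, -0.69 ± 0.23 (log2, adjusted p = 0.0166), was -0.38 without WT3 (adjusted p = 0.306) and -0.03 within preparations 5 and 8 (adjusted p = 0.867). The unsorted library of WT3 stood high: it had 708 CPM of Rrm1, 244 CPM of Dut and 68.3 CPM of Dctd, above each sorted gate of WT3.

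Several supply genes were lower at E13.5 than at E10.5, and the G1 gate had the most calls. There 6 members fell (Rrm1, Rrm2, Rrm2b, Tyms, Tk1 and Dut) and none rose, against 28.5% and 18.7% of all genes. Rrm2 fell by 1.52 ± 0.20 on the log2 scale (adjusted p = 1.3e-05), from 93.0 and 142 CPM to 41.8 and 40.3 CPM. Dut fell by 1.11 ± 0.23 (adjusted p = 0.00122), from 45.2 and 76.4 CPM to 26.9 and 29.7 CPM. Tk1 fell by 1.07 ± 0.13 (adjusted p = 4.74e-06), from 27.4 and 31.2 CPM to 14.6 and 13.3 CPM. Dctd and Samhd1 did not pass in G1, where the ranges of both days overlapped for each gene. In G1-S 4 members fell (Rrm2, Tyms, Tk1 and Dut) and none rose, where 19.8% of all genes fell and 19.8% rose.

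In S-G2-M 3 members fell (Rrm2, Dut and Dctd) and 1 rose, against 24.1% and 18.9% of all genes. The riser was Tk1, by 0.32 ± 0.12 (log2, adjusted p = 0.0429), from 72.0 and 71.0 CPM to 87.4 and 90.7 CPM. In G0 1 member fell and 1 rose, against 22.5% and 20.4% of all genes. Rrm2b fell by 0.97 ± 0.21 on the log2 scale (adjusted p = 0.00136), from 30.0 and 28.7 CPM to 14.9 and 15.2 CPM. Dctd rose by 0.89 ± 0.22 (adjusted p = 0.00308), from 5.71 and 7.50 CPM to 12.7 and 11.6 CPM. In unsorted cells 5 members fell (Rrm1, Rrm2, Tyms, Tk1 and Dctd) and none rose, against 28.7% and 25.2% of all genes.

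**Figure D4:**
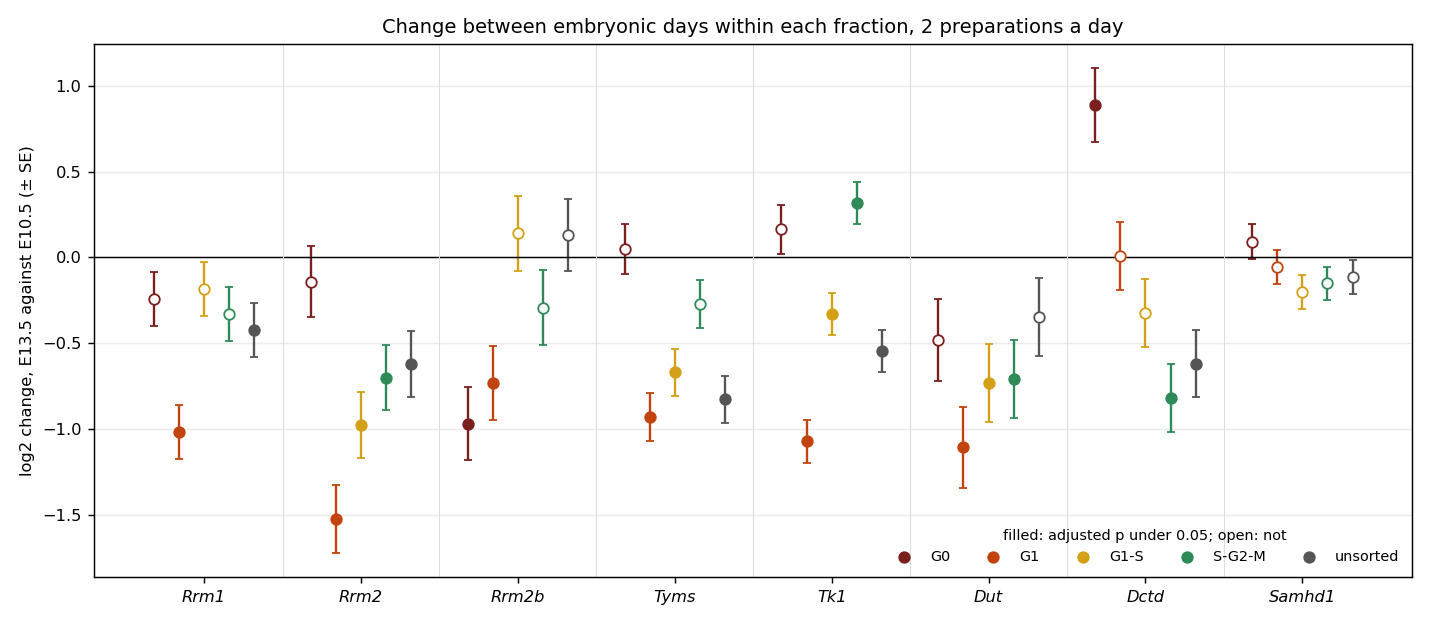
The log2 change from E10.5 to E13.5 (vertical axis) with its standard error for each gene in the 4 gates and in unsorted cells, 2 preparations a day; filled points passed the test. In G1 the 6 filled points lie below 0, and Dctd is above 0 in G0 and below 0 in S-G2-M.

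With 2 preparations a day these calls rest on few libraries. Without preparation 5 the number of members called was 0 in G0, 4 in G1, 1 in G1-S, 0 in S-G2-M and 2 in unsorted cells, and without preparation 8 it was 1, 5, 0, 0 and 2. The lone E13.5 library of a fraction is then assumed to vary like the other groups. Without WT1 5 members were called in G0, and Tk1 in G1-S no longer passed (adjusted p = 0.246). Without WT2 Rrm1 in unsorted cells did not pass (adjusted p = 0.0544). With no filter on low counts Tk1 passed neither in G1-S (adjusted p = 0.0795) nor in S-G2-M (adjusted p = 0.138). Day cannot be told apart from the naming of the preparations or from their share of mitochondrially encoded counts. It also goes with the sequencing layout. The lane columns summed to a library numbered 2 in preparations 5 and 8, 6 in WT1 and 8 in WT2. In the G1 gate 6 of 6 genes of the passage from G1 to S (median log2 change -0.99) and 6 of 8 genes from S phase to mitosis (median -0.91) were lower at E13.5 as well, and their part in the fall of the supply genes was not tested. In G1-S and in S-G2-M 4 of 6 genes of the passage from G1 to S were lower. Of the 8 genes from S phase to mitosis, 6 were higher and 1 lower in G1-S (median 0.998). In S-G2-M 3 of them were higher and 1 lower (median 0.218). The part of these genes in the changes of the supply genes was not tested either. Markers of other cell types also differed between the days. Mesenchyme markers were higher at E13.5 in G0 (8 of 8) and in G1 (6 of 8). In G1 7 of 10 neuron markers (median -0.64) and 5 of 8 neural progenitor markers (median -1.03) were lower. In G1-S and in unsorted cells 8 of 8 hepatocyte markers (median 5.82 in G1-S) and 10 of 10 macrophage markers (median 1.88 in G1-S) were higher. In S-G2-M 8 of 10 neuron markers were higher (median 1.08). In G0 5 of 8 neural progenitor markers were higher and 5 of 8 cardiac markers lower. The part of these marker changes in the day differences of the supply genes was not tested. E11.5 has 1 preparation, and its values stand beside the others without a test.

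Whether a step between gates differed between the days was tested as the change at E13.5 minus the change at E10.5. From G0 to G1, 3 members rose less at E13.5 (Rrm2, Tyms and Tk1) and none more, against 2.47% and 1.04% of all genes. The rise of Rrm2 was 2.54 and 2.57 on the log2 scale in WT1 and WT2, and 1.13 and 1.24 in preparations 5 and 8; the difference was -1.38 ± 0.28 (adjusted p = 0.0107). Tyms rose by 1.49 and 1.71 at E10.5 and by 0.59 and 0.68 at E13.5 (difference -0.98 ± 0.20, adjusted p = 0.0111). For Tk1 the rises were 2.39 and 2.40 against 1.12 and 1.21 (difference -1.24 ± 0.19, adjusted p = 0.00144). WT3, of E11.5, lay between the days in all 3 genes, at 1.87, 1.18 and 1.59. By the same test 4 of 6 genes of the passage from G1 to S also had a lower change at E13.5 (median difference -1.17). So did 1 of 8 genes from S phase to mitosis (median -0.885), 3 of 8 neural progenitor and 3 of 8 mesenchyme markers. Their part in the differences of the supply genes was not tested.

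From G1 to G1-S 2 members, Rrm1 and Tk1, rose more at E13.5 and none less, against 3.7% and 1.6% of all genes. Rrm1 rose by 1.41 and 0.89 at E10.5 and by 1.98 and 1.97 at E13.5 (difference 0.83 ± 0.22, adjusted p = 0.0374). Tk1 rose by 2.07 and 1.54 at E10.5 and by 2.51 and 2.60 at E13.5 (difference 0.74 ± 0.18, adjusted p = 0.0195). At this step 5 of 8 genes from S phase to mitosis also had a higher change at E13.5 (median difference 1.67). None of the 6 genes of the passage from G1 to S passed (median 0.294). Among markers, 7 of 8 hepatocyte and 7 of 10 neuron markers had a higher change, and 1 of 8 mesenchyme markers a lower one. Their part was not tested. For S-G2-M against G1-S no member passed, while 1.02% of all genes did; at an unadjusted p under 0.05 there was 1, Tk1, and DESeq2 called 1. For S-G2-M against G0 1 member, Dctd, rose less at E13.5 and none more, against 4.42% and 4.24% of all genes. The rise of Dctd was 3.06 and 3.06 in WT1 and WT2, and 1.29 and 1.43 in preparations 5 and 8 (difference -1.70 ± 0.29, adjusted p = 0.00116). As given above, Dctd was higher at E13.5 in G0 and lower in S-G2-M. None of these 6 calls passed without preparation 5 or without preparation 8, where the sign was kept and adjusted p was 0.0993 to 0.621. The call of Rrm1 was also lost without Gm26917 and Gm42418 (adjusted p = 0.0625), and that of Tk1 in G1-S against G1 with no filter (adjusted p = 0.0511). With preparation as a block the number of members called went from 3 to 5 for G1 against G0, with Rrm1 (adjusted p = 0.0117) and Dctd (adjusted p = 0.00442) added, and from 0 to 1 for S-G2-M against G1-S, which was Tk1 (adjusted p = 0.0344).

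Over the 20 sorted libraries, after the mean of each preparation was taken off, Rrm1, Rrm2, Tyms, Tk1, Dut and Samhd1 had similar patterns, with Pearson's r between 0.934 (Rrm1 and Samhd1) and 0.997 (Rrm2 and Tyms). Dctd was less like these 6, with r of 0.863 (Rrm1) to 0.927 (Samhd1). Rrm2b ran against the other members with r of -0.933 to -0.826. Among 10420 named genes whose mean log2 CPM was 3 or more, those most like Rrm2 were Exo1, Atad2, Mcm10, Tyms and Chaf1a (r = 0.996 to 0.998). Those most like Rrm1 were Ercc6l, Pclaf, Fbxo5, Asf1b and Mcm8 (0.995 to 0.998), and those most like Tyms were Rrm2, Rad51ap1, Cdc45, Brip1 and Cenpk (0.996 to 0.997). For Tk1 they were Topbp1, Rrm2, Tyms, Kntc1 and Cenpk (0.992 to 0.996), and for Dut they were Dnajc9, BC055324, Etaa1, Gmnn and Rad54l (0.991 to 0.995). Samhd1 was most like Uhrf1, Mbd4, Pola2, Cdc25a and Mtbp (0.986 to 0.99). Dctd had other neighbours: Pfkl, Pitrm1, Kdelc1, Suclg2 and Sdc1 (0.986 to 0.99). Rrm2b was most like Acss2, Snx10, Kctd10, Rubcn and Klhl28 (0.966 to 0.969). The libraries share their gates, their depth and their scaling, so these values describe the 4-gate pattern and are given without a p.

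The other genes of nucleotide supply were read from 9 lists in S-G2-M against G0. In the folate cycle, which feeds Tyms, 8 of 10 genes rose and 1 fell (median log2 change 1.35). Shmt1, which loads folate with the carbon unit that Tyms uses, rose by 2.94 ± 0.14. De novo pyrimidine synthesis had 5 of 5 genes higher (median 1.22), with Umps at 1.73 ± 0.18 and Cad at 1.70 ± 0.07. In de novo purine synthesis 11 of 13 rose and 1 fell (median 1.35). Prps2 rose by 1.86 ± 0.27 and Pfas by 1.72 ± 0.08, and Impdh1 fell by 0.52 ± 0.09.

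Kinases and salvage genes moved both ways. Of 11 nucleotide kinases tested 6 rose and 2 fell (median 0.45); Ak4 rose by 2.10 ± 0.22 and Nme4 by 1.65 ± 0.19, while Ak1 fell by 1.29 ± 0.16 and Cmpk2 by 1.09 ± 0.20. Nme3 of that list was at 0 in every library. Dtymk, which phosphorylates the product of Tyms and Tk1, rose by 1.39 ± 0.12. Of 11 genes of salvage kinases and mitochondrial supply 5 rose and 1 fell (median 0.14): Tfam rose by 0.997 ± 0.13 and Twnk by 0.86 ± 0.10, and Tk2, the mitochondrial thymidine kinase, fell by 0.84 ± 0.11, the opposite of Tk1. In base salvage 4 of 6 rose and 1 fell (median 0.76), with Adk at 1.91 ± 0.14, Hprt at 1.24 ± 0.20 and Uckl1 at -1.13 ± 0.12.

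Of 18 genes of breakdown and pool cleaning 6 rose and 4 fell (median -0.19). Those that rose most, Dnph1 (2.26 ± 0.17) and Dctpp1 (2.24 ± 0.19), cleave deoxynucleotides, and Dpyd (-1.30 ± 0.33) and Upp2 (-1.02 ± 0.19) fell. Regulators of ribonucleotide reductase rose in 8 of 8 (median 1.35), led by Ccnf (4.403 ± 0.22), which marks Rrm2 for destruction, and Wee1 (2.87 ± 0.16). Of 12 p53 target genes, a class that includes Rrm2b, 3 rose and 5 fell (median -0.16). Trp53inp1 fell by 2.31 ± 0.14 and Cdkn1a by 1.53 ± 0.30, and Phlda3 rose by 0.81 ± 0.18 and Aen by 0.76 ± 0.12. All changes named for these lists passed edgeR's quasi-likelihood test, with adjusted p of 0.00176 or less, and the share of all genes that rose or fell in this comparison is given above.

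**Figure D5:**
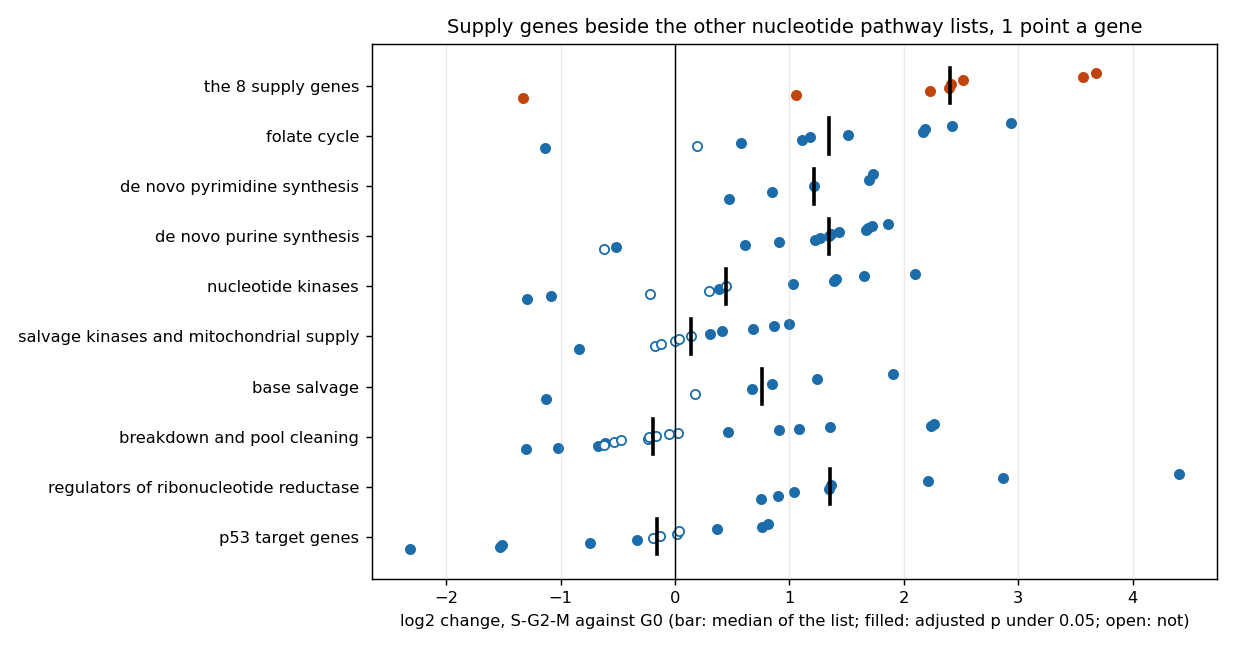
The log2 change in S-G2-M against G0 (horizontal axis) of each gene of the 9 pathway lists and of the 8 supply genes, 1 point a gene; bars are medians and filled points passed the test. The 8 supply genes have a median of 2.40, with Rrm2b alone below 0.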

How the data were processed

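Sorted and unsorted FUCCI embryo cells gave rRNA-depleted RNA for Illumina libraries, per the labels' protocols. The deposited values are raw counts per gene, unnormalized, in 1 table with 130 columns; the submitters' processing notes name STAR 2.5.3, HTSeq 0.8.0 and mm10. Annotation and strand setting: not given in the sources used here. Columns whose names share a preparation and a fraction were taken as parts of 1 library and were summed to 25 libraries, each counted once. In WT3 the columns of a library also carry more than 1 sample number. The index of dispersion between parts was 1.09 to 1.23 where the expected count was 5 or more, and 5.9 to 117.5 between preparations. The 25 totals of 14.7 to 58.5 M counts limit the precision for genes with few counts. Locations and lengths came from GENCODE M21 on GRCm38, and promoters from RefSeq.

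filterByExpr by fraction, with a minimum count of 10 and a minimum total of 15, chose the genes, which were scaled by TMM and tested in edgeR 4.0.16 (limma 3.58.1, R 4.3.3) by the robust quasi-likelihood F test, with Benjamini-Hochberg adjustment over 23506 genes and a threshold of 0.05. Comparisons of gates used fraction and embryonic day as terms over all 25 libraries, and comparisons of days fitted every combination of day and fraction. The SE is |log2 change| over the root of F. CPM is relative to TMM-scaled totals. The model was tested on simulated data. Alternatives were RLE factors, DESeq2 1.42.0, no filter, scaling without Gm26917 and Gm42418, each preparation left out, preparation as a block, the WT-titled preparations or preparations 5 and 8 alone, and the sorted libraries alone. Since nothing says that preparations are separate embryos, p-values measure the spread between these samples, which may be technical.

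Libraries of 1 preparation were taken as paired from their shared title prefix. The main fits held no preparation term, so their p-values and SEs do not use this pairing. Among the fits it entered only those with preparation as a block. As a check of the pairing, the log2 difference between the preparations of 1 day was correlated from fraction to fraction. Pearson's r was 0.119 to 0.743 for WT1 and WT2 and 0.317 to 0.663 for 5 and 8 over 11136 genes whose mean log2 CPM was 3 or more; over all 23506 genes tested it was 0.023 to 0.454 and 0.053 to 0.117.

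The members, the lists and the tests were chosen with earlier results of these data known. Named genes are the 8 members, the 5 genes most like each member over the sorted libraries (without predicted genes), and up to 2 genes each way of each pathway list with the greatest change in S-G2-M against G0; Dtymk was added after its values were seen. Some genes that this rule picks in the folate list are not reported here.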

Additional observations from a re-analysis of the deposited data

Results flagged for a closer look

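For 6 results the step between gates differed between E10.5 and E13.5 by the test of the difference itself. On the log2 scale, as the change at E13.5 minus the change at E10.5, G1 against G0 differed by -1.38 in Rrm2, -0.98 in Tyms and -1.24 in Tk1. For G1-S against G1 the difference was 0.83 in Rrm1 and 0.74 in Tk1, and for S-G2-M against G0 it was -1.70 in Dctd. The days also differ in the naming of the preparations and in the share of mitochondrially encoded counts. The number of lane columns summed to a library differs too (2 in 5 and 8, 6 in WT1, 8 in WT2). None of these can be told apart from age. No library of the 40 groups of 5 (8 genes in 5 fractions) stood apart from the others of its group by Dixon's ratio at 0.71, where chance flags about 1 group in 20. That rate assumes 5 values of 1 kind, while each group spans 3 embryonic days, and differences between days widen its range. Rrm2 in G1, for example, had ratios of 0.025 and 0.027 at its 2 ends. The ratio can therefore miss a library that departs from its own day.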

How the results depend on the processing

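Of 416 recomputed log2 changes of members between gates, 409 kept their direction and their side of the threshold, 3 passed it that had not, and 4 small changes that had not passed turned sign: Rrm2b in G1-S against G1 (0.016) and Tk1 in S-G2-M against G1-S (0.13) within preparations 5 and 8, and Rrm1 (-0.008) and Dut (-0.009) in S-G2-M against G1-S without WT2, with ranges of -0.008 to 0.121 and -0.009 to 0.172 over the preparations left out. In S-G2-M against G1-S 1 member passed with DESeq2 (Samhd1) and 1 with no filter on low counts (Rrm2). Against unsorted cells, the number of members called in S-G2-M was 0 to 3 with 1 preparation left out, 1 with preparation as a block, 0 in the WT-titled preparations alone and 5 in the other pair alone; in G1-S it was 1 to 3, with 1 in the WT-titled preparations alone and 6 in the other pair. For E13.5 against E10.5, leaving out 1 preparation gave 0 to 5 members in G0, 0 to 6 in G1-S, 0 to 6 in S-G2-M and 2 to 6 in unsorted cells. For the day differences it gave 0 to 6 for G1 against G0, 0 to 5 for G1-S against G1, 0 to 3 for S-G2-M against G1-S and 0 to 3 for S-G2-M against G0. With no filter the day difference called 5 members for G1 against G0 and 1 for G1-S against G1, where leaving out Gm26917 and Gm42418 also gave 1; for S-G2-M against G1-S it called 1 with RLE factors, 1 with DESeq2 and 1 with the replicate block, under which G1 against G0 had 5. The block changed no other call but those given here and above, Rrm2b joining the day difference of G1-S against G1 (adjusted p = 0.0387). Over all alternatives the number of genes called ranged around the main count as follows: 2233 to 8476 (4444) in G1-S against G1, 2430 to 4914 (4087) in S-G2-M against G1-S, 5834 to 12769 (10643), 3925 to 9490 (7785) and 1495 to 11423 (7088) for G1, G1-S and S-G2-M against unsorted cells. By day it was 5600 to 11752 (10090) in G0, 5296 to 13495 (11081) in G1, 4361 to 12260 (9325) in G1-S, 4637 to 12013 (10105) in S-G2-M and 6930 to 14319 (12657) in unsorted cells. For the day differences it was 8 to 3753 (825), 32 to 5371 (1247), 1 to 2512 (239) and 231 to 4283 (2036) in the order above, with 1819, 2688, 784 and 3380 under the block. The share of calls that were higher in G1-S against G1 was 62.0%, and 51.9% with RLE factors, 50.3% with DESeq2 and 50.1% without Gm26917 and Gm42418; in G1 against unsorted cells it was 40.7%, and 51.0% with RLE factors. RLE factors moved the median of all genes in G0 against unsorted cells from 0.03 to 0.13. A cause of these shifts was not tested. The fits with preparations left out also had fewer samples.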

Other observations

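Outside the supply genes, RNA levels of genes of purine synthesis also differed between the days. In S-G2-M 9 of 13 genes of de novo purine synthesis were lower at E13.5 than at E10.5 and none was higher (median log2 change -0.69), where 24.1% of all genes were lower and 18.9% higher and the median of all genes was -0.07. Ppat, the first committed enzyme of the pathway, fell by 1.07 ± 0.23 (edgeR's quasi-likelihood test, adjusted p = 0.00138), and Adsl fell by 0.79 ± 0.14 (adjusted p = 0.000341); both were named after their values were seen. Of 11 nucleotide kinases tested 7 were lower and none higher in S-G2-M (median -0.70), and of 10 folate genes 6 were lower and none higher (median -0.40). These counts rest on both E13.5 preparations: without preparation 5 there were 2 purine, 1 kinase and 2 folate genes lower, and without preparation 8 there were 1, 4 and 2, with medians of -0.73 and -0.60 for the purine genes. Ppat passed in neither case (adjusted p = 0.0559 and 0.0713), and Adsl passed in both (adjusted p = 0.0431 and 0.0304). Over all genes the number called went from 10105 to 4644 without preparation 5 and to 4637 without preparation 8.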
